A study of Homo sapiens with 2 samples.

Results

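The 50 genes described here act in G2 and mitosis, from the CDK1 kinase and its activators to the kinetochore, spindle, cytokinesis and nuclear envelope. They were taken by symbol from the gene rows of a joint RNA and chromatin matrix, 50 of 36601 genes, together with the 86 of 187920 chromatin peaks within 2000 bases of their annotated starts. Entry into mitosis is driven by CDK1 bound to a B-type cyclin, and exit follows when the anaphase-promoting complex marks cyclin and securin for destruction. Most genes of this programme are transcribed only late in the cell cycle: a repressor complex (DREAM) keeps them off in resting cells, and MYBL2 and FOXM1 switch them on in G2. MKI67, one of them, is the gene of the Ki-67 antigen that pathologists stain to count dividing cells in lung tumours.

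The material was a mixture of 5 established human lung adenocarcinoma lines: A549, H838, H1975, H2228 and HCC827. Each line was cultured on its own until nearly confluent, deep-frozen and mixed in equal parts, with no treatment of any line. The mixture went through 1 capture, of which 80% was used for the RNA and ATAC libraries described here, and the remaining 20% was not analysed here. Every barcode carries RNA counts as unique molecular identifiers (UMIs) and peak counts of open chromatin from the same droplet. Each line is 1 culture in 1 library, so there is no replicate error and no test: intervals are exact Poisson (sums) or exact binomial (shares) at 95% and cover counting error only, and a line, its culture and its density at harvest cannot be told apart.

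Of 3298 barcodes, 2594 were given a line, by agreement of their chromatin cluster, computed without the peaks of the 50 genes, and of marker genes outside the 50. The lines named by the A549 and HCC827 markers are called A549-like (758 barcodes) and HCC827-like (437). All 8 A549 and all 8 HCC827 markers were highest in their own line, which the assignment by these markers largely fixed in advance. The markers did not settle which of the other lines are H838, H1975 and H2228, so these carry the name of a leading gene: the S100A9 line (468), the SLC30A8 line (572) and the DHRS2 line (359). Summed markers of a line reached in the next highest line between 3.29% (A549-like) and 18.5% (S100A9 line) of their own level. These values were taken after barcodes with disagreeing markers had been left out. Before that, S100A9 markers summed to 1029 CPM in the DHRS2 chromatin cluster and 3796 CPM in the S100A9 cluster. Median depth ran from 4492.5 UMIs per barcode in the A549-like line to 18713 in the DHRS2 line. Mitochondrial UMIs were 0.420% and 0.430% at the median in the SLC30A8 and A549-like lines and 8.80% to 13.7% in the others. A further 42 barcodes of the DHRS2 chromatin cluster carried S100A9 markers at a median of 47743 UMIs and were left out. Immune and red cell markers were at or near 0 (summed to at most 14.3 CPM and 0). Endothelial markers summed to 89.6 CPM in the S100A9 line, nearly all of it PECAM1 (89.2 CPM). VWF, CDH5 and KDR were at most 1.43 CPM in any line. Fibroblast markers summed to 153 CPM in the DHRS2 line, nearly all of it COL1A1 and COL1A2. DCN had 1 UMI in all, and LUM was at most 2.77 CPM. The part of these genes in the results was not tested. CPM is the share of a line's UMIs, or of its peak counts, in counts per 1000000.

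The share of barcodes with raised RNA of G2 and mitosis genes differed widely between the lines. It was read from 40 other G2 and mitosis genes, none of the 50 (PLK1, CCNB1 and CCNA2 among them). Each barcode was thinned to 3000 UMIs, and one with at least 3 UMIs of the list was called G2/M-high. The share was 58.7% (54.4% to 62.8%) of 554 barcodes in the SLC30A8 line and 48.0% (44.0% to 52.1%) of 612 in the A549-like line. In the DHRS2 line it was 39.4% (34.2% to 44.7%) of 353, and in the HCC827-like line 29.9% (25.6% to 34.6%) of 421. The S100A9 line was far below the rest, at 7.11% (4.95% to 9.84%), 33 of 464 barcodes. The intervals of the A549-like and DHRS2 lines overlapped, as did those of the DHRS2 and HCC827-like lines, and the other neighbours in this order did not.

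The call is a cut through a range and not a cell type: 494 of 2404 barcodes (20.5%) lay within 1 UMI of the cut. Thinning left out 146 shallow barcodes of the A549-like line and 4 to 18 of each other line. Without thinning, the shares at the same cut were 73.6% (SLC30A8), 50.5% (A549-like), 77.4% (DHRS2), 59.7% (HCC827-like) and 37.6% (S100A9), and the 3 deepest lines rose most. With a cut of 4 UMIs the S100A9 share was 3.66%, and with thinning to 2000 UMIs it was 3.85%. Among barcodes with at least 3% mitochondrial UMIs, a split chosen after seeing the data, the A549-like line (37.6%) and the DHRS2 line (38.3%) changed places.

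The 50 genes themselves, which took no part in that call, followed the same order of lines at its ends. Per 3000 UMIs, the median barcode held 8 UMIs of the 50 genes in the SLC30A8 line, 5 in the A549-like and DHRS2 lines, 3 in the HCC827-like line and 2 in the S100A9 line. Summed over the line, they made up 4226 CPM (4173 to 4280) in the SLC30A8 line and 3548 CPM (3496 to 3601) in the A549-like line. The DHRS2 line stood at 2711 CPM (2683 to 2740), the HCC827-like line at 2583 CPM (2544 to 2623) and the S100A9 line at 1226 CPM (1204 to 1248). In a sum over a line, fewer G2/M-high barcodes and less RNA per such barcode cannot be told apart, so both parts are given. G2/M-high barcodes held 5831 (A549-like), 5321 (HCC827-like), 3169 (S100A9), 5666 (SLC30A8) and 4097 (DHRS2) CPM of the 50 genes. Other barcodes held 1275, 947, 963, 1266 and 1663 CPM in the same order. The S100A9 line was thus lowest in the share of such barcodes and in the level within them, while its other barcodes were close to those of the HCC827-like line. Of its 33 G2/M-high barcodes 16 held exactly 3 UMIs of the call list, against 38 of 294 (A549-like), 29 of 126 (HCC827-like), 57 of 325 (SLC30A8) and 31 of 139 (DHRS2). In barcodes above 3 UMIs, a limit added after seeing the data, the 50 genes summed to 3817 CPM (3660 to 3979) in the S100A9 line, over 17 barcodes, and to 4536 (DHRS2) to 6600 CPM (A549-like) in the others. At exactly 3 UMIs the S100A9 line was not the lowest, at 2505 CPM against 2256 to 2679 CPM.

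**Figure D1:**
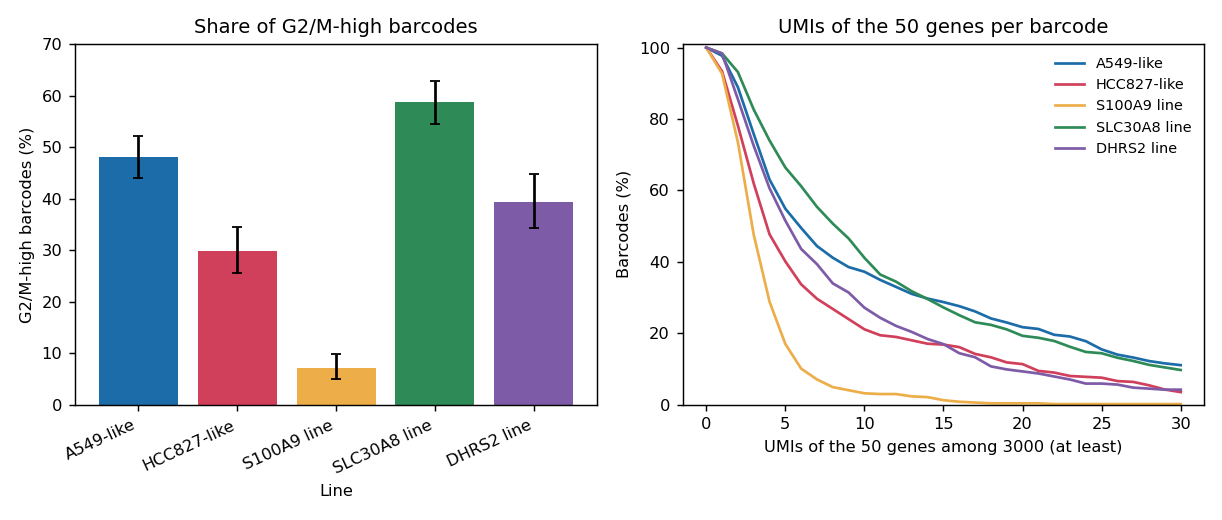
Left: bars give the share of G2/M-high barcodes in each line (%), with exact binomial 95% intervals, from 7.11% in the S100A9 line to 58.7% in the SLC30A8 line. Right: for each line, the percentage of barcodes (y) that hold at least a given number of UMIs of the 50 genes among 3000 (x); the S100A9 curve drops first.

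Gene by gene, the S100A9 line was the lowest of the 5 for 44 of the 50 genes, where 22.9% of all 20566 measured genes were lowest in it. Against the mean of the other lines, 42 of the 50 were at least 2-fold lower there and 0 higher (16.6% and 8.3% of all genes), with a median log2 ratio of -1.85 (all genes -0.22). This low level of G2/M genes and the high one of the SLC30A8 line were known from earlier results of these data and are not independent support. In the SLC30A8 line 19 were higher and 0 lower (12.4% and 19.3% of all genes), at a median of 0.84 (all genes -0.04), and 29 of the 50 genes had their highest level in it. In the A549-like line 7 were higher and 1 lower (11.6% and 15.9%), with a median of 0.35 (all genes -0.02), and the share of higher genes is close to that of all genes. In barcodes with at least 3% mitochondrial UMIs, a split added after seeing the data, the A549-like line turned to 1 higher and 4 lower, at a median of -0.21 (all genes -0.20). The HCC827-like line had 0 higher and 0 lower (6.54% and 16.8%), at -0.23, and the DHRS2 line 0 higher and 1 lower (4.28% and 8.6%), at -0.25. In barcodes under 3% the DHRS2 median turned to 0.15 (all genes -0.07), with 4 higher and 0 lower. TMM, a scaling by trimmed means, moved the median of all genes by up to 0.16 on the log2 scale and left 42 genes lower in the S100A9 line and 14 higher in the SLC30A8 line. With it the A549-like line had 5 higher and 3 lower, and the HCC827-like line 2 higher and 0 lower; scaled to UMIs other than mitochondrial ones, the A549-like line had 6 higher and 2 lower. Spans between the highest and lowest line are given throughout as ratios of (CPM + 1), which are smaller than ratios of the printed CPM. Of the 50, 46 differed at least 2-fold between their highest and lowest line (74.3% of all genes) and 36 at least 4-fold (30.2%). All 50 had at least the minimum of 20 UMIs, with 252 to 6656 UMIs per gene.

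**Figure D2:**
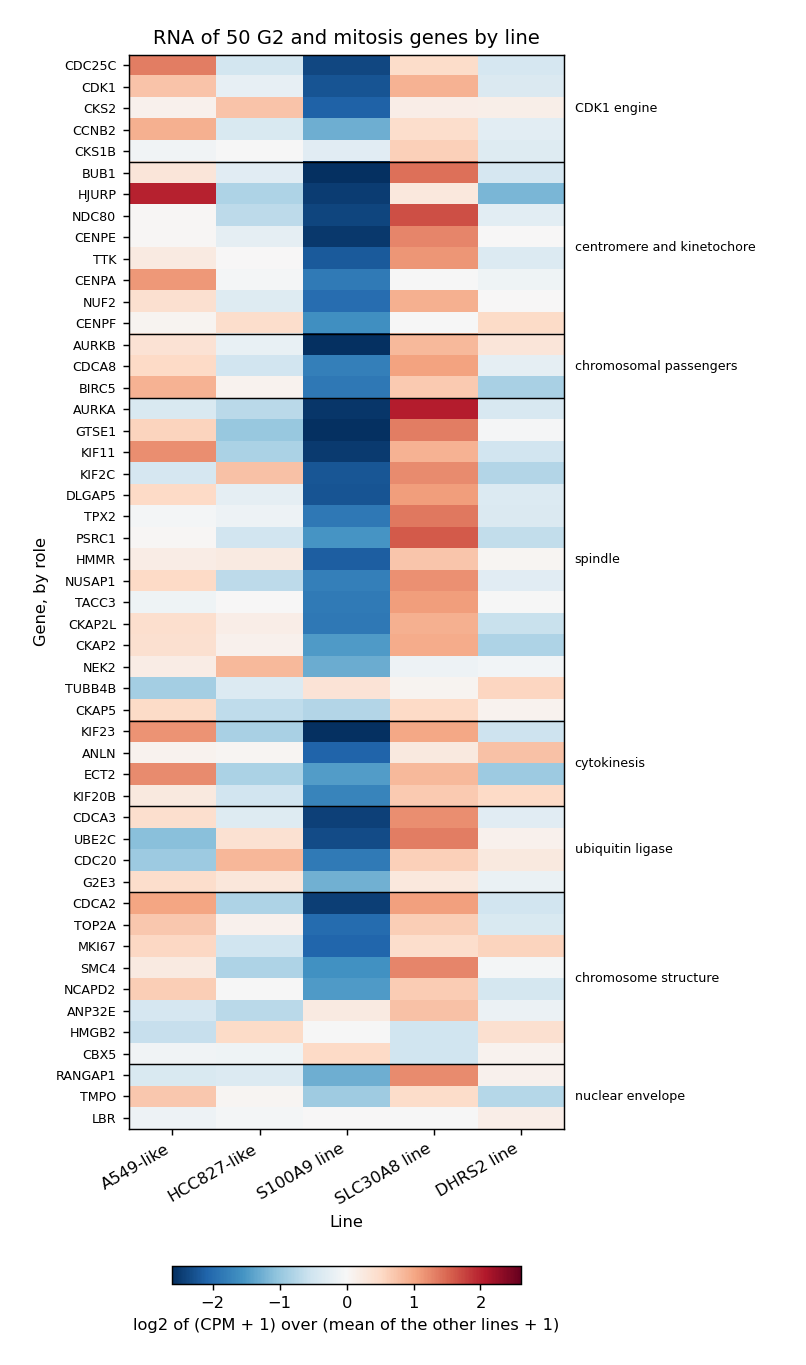
Colour gives the log2 ratio of RNA (CPM + 1) in a line to the mean of the other lines, for the 50 genes (rows, by role) in the 5 lines (columns). The S100A9 line is the lowest of the 5 lines in 44 of 50 rows, with TUBB4B, HMGB2, LBR, CBX5, ANP32E and CKS1B as the other rows.

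CDK1, the kinase that starts mitosis (ENSG00000170312, starts at chr10:60778454-60780153 in GRCh38), stood at 48.8 CPM in the A549-like, 29.1 in the HCC827-like, 7.496 in the S100A9, 53.0 in the SLC30A8 and 26.5 in the DHRS2 line. Its SLC30A8 and A549-like levels had overlapping counting intervals, as had its HCC827-like and DHRS2 levels, and the S100A9 line lay apart below. CDC25C, the phosphatase that removes the inhibitory phosphates from CDK1, was at 59.9, 23.1, 6.25, 39.6 and 23.7 CPM in the same order of lines, so the A549-like line led. CKS2, a small subunit of CDK complexes, was instead highest in the HCC827-like line, at 30.9 CPM, against 5.00 in the S100A9 line. Its relative CKS1B, which also serves in the destruction of the inhibitor p27, hardly followed the lines, at 28.3, 29.8, 25.2, 41.9 and 24.7 CPM. Of the 5 genes of this group, 4 were lower in the S100A9 line (all but CKS1B) and 0 higher in the SLC30A8 line.

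The centromere and kinetochore genes, which tie chromosomes to the spindle, were lower in the S100A9 line in 8 of 8 and higher in the SLC30A8 line in 4 of 8. BUB1, a kinase of the spindle checkpoint, was at 61.5 (A549-like), 43.3 (HCC827-like), 8.02 (S100A9), 105 (SLC30A8) and 39.7 (DHRS2) CPM, an 11.7-fold span. HJURP, the chaperone that loads the centromeric histone CENPA, had another order: 68.5, 16.4, 5.00, 31.2 and 12.8 CPM, with a log2 ratio to the other lines of 2.00 in the A549-like line and of -1.18 in the DHRS2 line. CENPA followed it in leading in the A549-like line (52.6 CPM, against 27.4 to 29.1 in the HCC827-like, SLC30A8 and DHRS2 lines and 8.95 in the S100A9 line). CENPF, a large protein of the outer kinetochore, spanned only 3.39-fold, at 172, 213, 63.0, 165 and 216 CPM, with the DHRS2 and HCC827-like lines on top and overlapping.

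The chromosomal passengers AURKB, CDCA8 and BIRC5 form 1 complex that corrects wrong attachments. AURKB, its kinase, was at 53.0, 38.6, 5.31, 67.5 and 51.3 CPM in the A549-like, HCC827-like, S100A9, SLC30A8 and DHRS2 lines. CDCA8 (borealin), a scaffold subunit, was at 23.5, 12.9, 5.31, 30.6 and 15.3 CPM. BIRC5 (survivin), which docks the complex at the centromere, was at 34.2, 22.3, 6.14, 30.6 and 12.5 CPM. The S100A9 line was lowest for all 3, but in the DHRS2 line AURKB was near the A549-like level while BIRC5 was far below it.

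Among the 15 spindle genes, 13 were lower in the S100A9 line and 8 higher in the SLC30A8 line, the line in which 12 of them were highest. AURKA, the kinase that matures spindle poles, had the widest span of all 50 genes in (CPM + 1), 12.2-fold, with GTSE1 next at 11.8-fold. In plain CPM the span of GTSE1 was wider than that of AURKA. AURKA was at 31.1 CPM in the A549-like, 25.8 in the HCC827-like, 7.39 in the S100A9, 102 in the SLC30A8 and 31.04 in the DHRS2 line. Outside the SLC30A8 line its 3 middle levels overlapped in counting intervals. GTSE1, a microtubule-binding protein that also restrains p53, was at 36.8, 14.6, 3.54, 52.5 and 26.1 CPM, with no overlap between neighbours. TPX2, which activates AURKA on spindle microtubules, was likewise highest in the SLC30A8 line (192 CPM, against 30.8 to 94.8). CKAP5, a microtubule polymerase that interphase cells also use, spanned 2.06-fold, at 150.3, 78.1, 73.6, 153 and 122 CPM. The tubulin gene TUBB4B, whose reads may be shared with other tubulin genes, was lowest in the A549-like line (36.0 CPM) and at 74.0 CPM in the S100A9 line.

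For cytokinesis, the final cut between daughter cells, 4 of 4 genes were lower in the S100A9 line and 2 higher in the A549-like line. KIF23, the motor of the central spindle, was at 83.6, 27.8, 7.496, 77.1 and 33.4 CPM (A549-like, HCC827-like, S100A9, SLC30A8, DHRS2). ECT2, which switches on RhoA at the cleavage site, was also highest in the A549-like line, at 281 CPM, with 235 in the SLC30A8 line and 63.4 in the S100A9 line. ANLN (anillin), a scaffold of the contractile ring, was highest in the DHRS2 line: 118, 114, 30.4, 128 and 166 CPM. KIF20B, a kinesin of late cytokinesis, was at 86.0, 56.4, 25.8, 108 and 98.7 CPM.

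Of the ubiquitin genes, UBE2C and CDC20 drive exit from mitosis, and 4 of 4 genes of the group were lower in the S100A9 line. UBE2C, the conjugating enzyme of the anaphase-promoting complex, was at 13.9 (A549-like), 34.0 (HCC827-like), 5.73 (S100A9), 53.4 (SLC30A8) and 29.2 (DHRS2) CPM. It was the only 1 of the 50 genes that was at least 2-fold lower in the A549-like line. CDC20, the activator of the same complex, shared this low A549-like level (11.9 CPM, against 24.7 to 33.8 in the HCC827-like, SLC30A8 and DHRS2 lines), although the A549-like line came next to the highest in the share of G2/M-high barcodes. CDCA3, an adaptor for the destruction of WEE1, was at 20.7, 13.1, 2.81, 30.3 and 13.5 CPM. G2E3, a ligase named for its expression in G2, was at 166, 152, 61.4, 151 and 118 CPM, with the 3 highest lines in overlap.

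Of the chromosome structure genes, 5 of 8 were lower in the S100A9 line. TOP2A, the topoisomerase that untangles sister chromatids, was at 261, 192, 52.2, 253 and 144 CPM in the A549-like, HCC827-like, S100A9, SLC30A8 and DHRS2 lines. MKI67, which coats mitotic chromosomes, was at 83.8, 46.4, 17.0, 81.0 and 86.1 CPM, so that 3 lines were level and the HCC827-like line lay between them and the S100A9 line. CDCA2, which targets a phosphatase to chromatin at mitotic exit, was at 80.2, 29.2, 9.58, 81.7 and 35.2 CPM. CBX5 (HP1 alpha), a heterochromatin protein of all cell cycle phases, ran the other way, at 80.0, 78.6, 111, 62.0 and 87.8 CPM, and was the 1 gene of the 50 highest in the S100A9 line.

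Of the 3 nuclear envelope genes, RANGAP1, which activates the GTPase of Ran, was lower in the S100A9 line and higher in the SLC30A8 line, at 22.5, 23.2, 12.8, 53.5 and 30.2 CPM. TMPO, which binds lamins and chromatin, was at 191, 135, 76.6, 171 and 85.8 CPM, and its S100A9 and DHRS2 levels overlapped. LBR, the lamin B receptor, was the flattest of the 50 genes, at 89.8, 94.999, 98.2, 96.3 and 107 CPM, a 1.19-fold span with every pair of neighbours in overlap.

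Within each line, most of the 50 genes were higher in G2/M-high barcodes than in the others. With the lines weighted equally, 46 of 50 were at least 2-fold higher (1.77% of 20516 measured genes) and 0 lower (0.166%), at a median log2 ratio of 2.25 (all genes -0.03). By line, the higher genes numbered 45 (A549-like, 5.17% of all genes), 48 (HCC827-like, 3.28%), 42 (S100A9, 4.06%), 45 (SLC30A8, 5.1%) and 37 (DHRS2, 1.71%). The lower ones numbered 0 in each line (3.62%, 3.7%, 5.14%, 3.46% and 0.444% of all genes in that order), and 37 of the 50 were higher in all 5 lines (0.76%). The call and the 50 genes share barcodes and depth, so these ratios describe which genes move with the call. S phase genes moved with it too: with lines weighted equally, 24 of 38 were at least 2-fold higher, at a median log2 ratio of 1.19. G2/M-high barcodes can therefore include cells in S phase, and how well the call separates the phases was not tested.

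The 8 genes with the largest ratios were NDC80, GTSE1, BUB1, CDC25C, CDCA2, AURKB, CDCA8 and BIRC5, at log2 ratios of 3.57, 3.29, 3.28, 3.24, 3.14, 3.03, 3.01 and 2.98. NDC80, the microtubule anchor of the kinetochore, was at 58.5 CPM in G2/M-high and 3.16 CPM in other barcodes of the A549-like line. Its pairs were 52.5 and 1.23 CPM in the HCC827-like, 29.7 and 3.08 in the S100A9, 102 and 2.17 in the SLC30A8 and 47.2 and 10.2 in the DHRS2 line. AURKB was at 99.3, 92.6, 27.1, 98.3 and 86.2 CPM in G2/M-high barcodes of the A549-like, HCC827-like, S100A9, SLC30A8 and DHRS2 lines, against 6.78, 6.42, 2.37, 4.33 and 24.97 CPM in the others. These 8 are kinetochore, passenger, spindle and CDK1-activating genes and the phosphatase-targeting CDCA2.

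The 8 genes with the smallest ratios were CBX5 (0.48), ANP32E (0.63), LBR (0.64), TUBB4B (0.83), CKS1B (1.11), TMPO (1.19), G2E3 (1.19) and CKAP5 (1.20). The first 4 of these were the genes under 2-fold. CBX5 was at 95.6, 104, 131, 68.0 and 104 CPM in G2/M-high barcodes (A549-like, HCC827-like, S100A9, SLC30A8, DHRS2) and 62.8, 63.7, 108, 48.2 and 75.4 CPM in the others. ANP32E, a histone chaperone that removes H2A.Z, LBR and CBX5 serve interphase nuclei too, and so do the tubulin TUBB4B and the polymerase CKAP5. These 8 genes overlap with those that differed least between lines. Across the 50 genes the ratio in G2/M-high barcodes and the span between lines ran together (Spearman 0.77, Pearson 0.81). This is a description over genes that share barcodes and library, and its cause was not tested. Of the 6 genes not lowest in the S100A9 line, CBX5, ANP32E, LBR, TUBB4B and CKS1B are among these 8, and HMGB2, a chromatin-bending protein, had a ratio of 1.91.

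The DHRS2 line had the smallest ratios, with a median of 1.41 against 2.34 to 2.85 in the other lines, and the highest level of the 50 genes outside the call. Its barcodes also had the highest sum over markers of other lines, at a median of 1495 CPM in G2/M-high and 1614 CPM in other barcodes. That sum covers a different gene set in each line, so it does not rank the lines in carried-over RNA. In the DHRS2 chromatin cluster the HCC827 markers, EGFR among them, summed to 1391 CPM. RNA made by the line itself and RNA of other lines cannot be told apart there. G2/M-high barcodes were deeper than the others in every line, by 1.28 times (A549-like) to 2.15 times (S100A9) in median UMIs, before thinning. In the S100A9 line, 63.6% of the 33 G2/M-high barcodes had a score of their own markers at least 4 times the next, against 86.5% of the others. With such barcodes alone the S100A9 share was 5.33%. The part of mixed droplets or of free RNA in these values was not tested. Among barcodes under 3% mitochondrial UMIs the S100A9 line had 1 G2/M-high barcode, and 23 genes were then higher in place of 42.

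**Figure D3:**
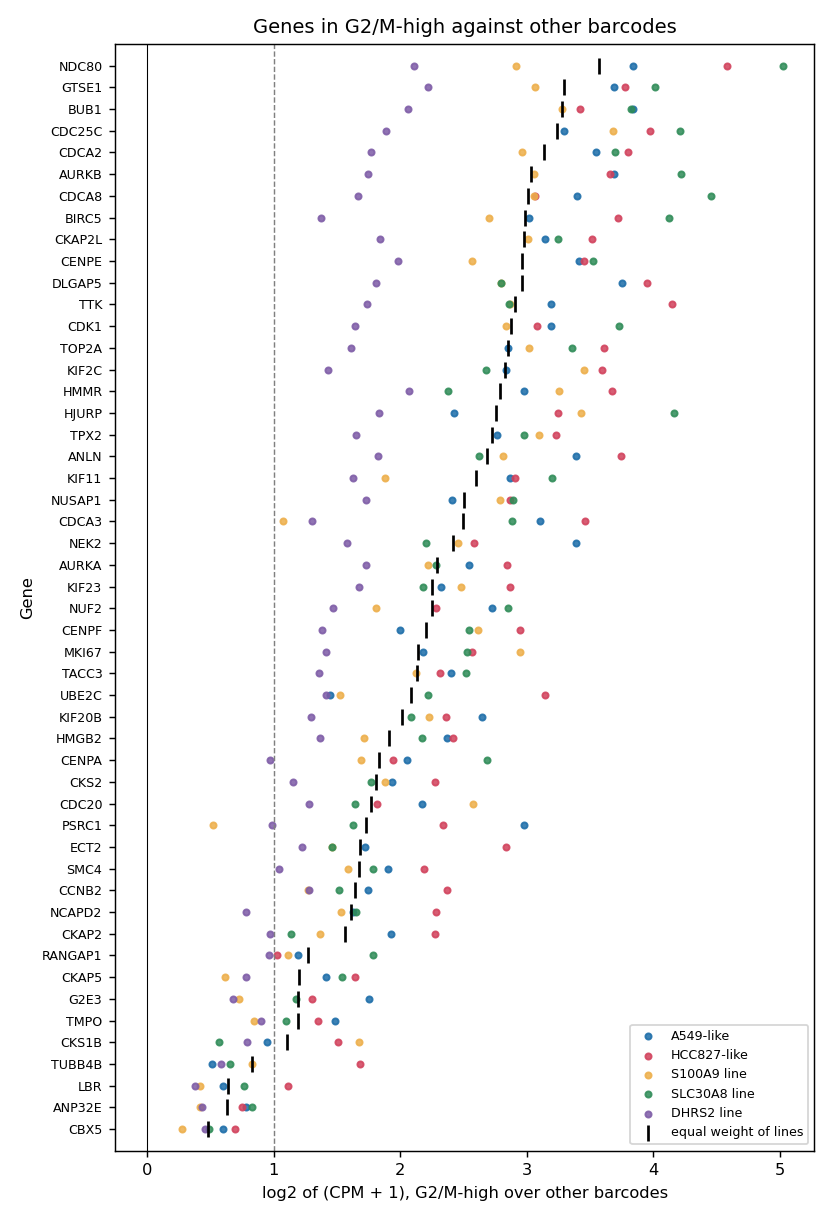
Each row is 1 of the 50 genes and each point a line: the log2 ratio of RNA (CPM + 1) in G2/M-high barcodes to other barcodes (x), with black ticks for the 5 lines weighted equally and a dashed line at 2-fold. Ticks run from 0.48 (CBX5) to 3.57 (NDC80), and the DHRS2 points lie to the left for most genes.

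The promoters of these genes are known for the CHR element, TTTGAA or TTCGAA close to the start, which DREAM and the activators MYBL2 and FOXM1 share, and for CCAAT boxes bound by NF-Y. RefSeq windows (GRCh38.p14) of 300 bases, from 250 bases before the annotated start to 50 after, were found for 42 of the 50 genes, 53 windows in all. TTK, BIRC5, AURKA, TPX2, UBE2C, HMGB2, CDCA2 and ANP32E had none in the table. A CHR on either strand was in 67.9% of the 53 windows, against 16.4% of all 35116 windows. A CCAAT on either strand was in 69.8% against 34.6%, and both motifs were in 54.7% against 6.38%. Counted by gene, 33 of 42 had a CHR and 27 had both, against 19.5% and 7.85% of all 27305 genes. Of the 51 CHR matches, 33 lay within 50 bases of the start. No such share over all windows is given here, so this count does not set the 50 genes apart. A match of letters is a description and shows no binding.

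Bases -150 to 19 (the annotated start is 0) are printed for the 5 genes with both motifs and the largest ratios in G2/M-high barcodes, for CENPA, chosen after its peak values were seen, and for CBX5, the gene with the smallest ratio. Capitals mark the CHR and CCAAT motifs, each as read on either strand (a CHR as TTTGAA, or TTCAAA when it lies on the other strand, and CCAAT as ATTGG there).
GTSE1, chr22:46296720-46296889, plus strand: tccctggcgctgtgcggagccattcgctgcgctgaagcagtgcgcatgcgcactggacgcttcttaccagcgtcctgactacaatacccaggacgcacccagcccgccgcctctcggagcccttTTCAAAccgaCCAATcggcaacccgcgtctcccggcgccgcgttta
BUB1, chr2:110678044-110678213, minus strand: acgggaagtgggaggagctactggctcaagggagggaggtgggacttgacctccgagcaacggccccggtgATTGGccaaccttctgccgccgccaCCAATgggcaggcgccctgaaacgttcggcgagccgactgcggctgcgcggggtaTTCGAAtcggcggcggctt
CDC25C, chr5:138331785-138331954, minus strand: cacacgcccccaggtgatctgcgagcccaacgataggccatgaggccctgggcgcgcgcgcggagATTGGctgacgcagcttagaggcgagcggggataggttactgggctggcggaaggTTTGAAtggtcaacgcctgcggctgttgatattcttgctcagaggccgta
CDCA8, chr1:37692366-37692535, plus strand: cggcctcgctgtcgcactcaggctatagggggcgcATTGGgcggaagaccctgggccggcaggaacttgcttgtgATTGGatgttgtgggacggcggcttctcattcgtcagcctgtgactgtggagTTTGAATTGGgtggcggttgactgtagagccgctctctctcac
CKAP2L, chr2:112764590-112764759, minus strand: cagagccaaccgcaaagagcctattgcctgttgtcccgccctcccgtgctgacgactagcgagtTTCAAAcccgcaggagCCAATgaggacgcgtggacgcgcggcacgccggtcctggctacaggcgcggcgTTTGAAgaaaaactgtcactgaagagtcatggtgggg
CENPA, chr2:26785906-26786075, plus strand: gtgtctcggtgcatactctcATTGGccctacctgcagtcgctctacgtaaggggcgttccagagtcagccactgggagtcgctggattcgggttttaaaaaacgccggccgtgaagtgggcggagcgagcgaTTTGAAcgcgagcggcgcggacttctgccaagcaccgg
CBX5, chr12:54280103-54280272, minus strand: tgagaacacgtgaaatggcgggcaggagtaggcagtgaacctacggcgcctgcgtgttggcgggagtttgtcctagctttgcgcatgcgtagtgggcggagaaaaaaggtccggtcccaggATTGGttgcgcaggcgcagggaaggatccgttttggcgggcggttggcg
The CHR begins at -26 in GTSE1, 1 in BUB1, -30 in CDC25C, -23 in CDCA8 and -18 in CENPA, and the first of 2 in CKAP2L at -86. In CDCA8 the CHR and an inverted CCAAT overlap in one run of capitals. The CBX5 stretch holds an inverted CCAAT and no match of the CHR letters. NDC80, with the largest ratio of all, has a CHR and no CCAAT in its window, and AURKB has a CCAAT and no CHR.

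Chromatin near the starts of the genes differed far less between the lines than their RNA. Each of the 50 genes had at least 1 peak and at most 5, no peak belonged to more than 1 of them, and the peak with the most counts is called its start peak. It need not cover the RefSeq start. For KIF11 and CDCA3 a weaker peak lay over the RefSeq window, and the TACC3 window had none. The KIF11 start peak spanned 2.13-fold between lines and the peak over its window 1.74-fold. For CDCA3 these were 1.92-fold and 2.03-fold. Between the highest and lowest line the start peaks spanned 1.70-fold at the median (1.21 to 21.1), and the RNA 5.29-fold (1.19 to 12.2). At least 2-fold was reached by 15 of 50 start peaks (of all 18354 measured genes with a peak, 55.2%). Of 12178 measured genes whose strongest peak had at least as many counts as the weakest of these 50 (1595), 43.1% reached 2-fold, at a median of 1.88. The RNA span was larger than the peak span in 48 of the 50 genes (71.9% of those genes), with UBE2C and LBR as the others. Against the mean of the other lines, 0 of 81 measured peaks were at least 2-fold higher and 6 lower in the S100A9 line (12% and 12.6% of all 124429 measured peaks), and 5 higher and 3 lower in the SLC30A8 line (8.02% and 24.4%). The counts were 2 higher and 3 lower in the A549-like line (7.46% and 28.1%), 2 and 5 in the HCC827-like (9.5% and 15%), and 2 and 1 in the DHRS2 line (10% and 4.9%). With TMM the A549-like line had 8 higher and 2 lower peaks, and the DHRS2 line 1 higher and 3 lower.

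**Figure D4:**
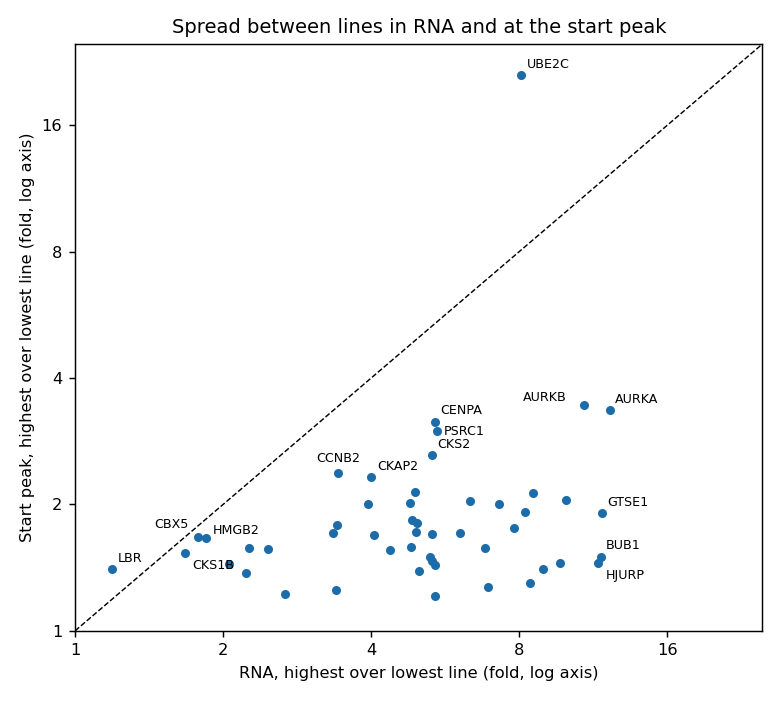
For each of the 50 genes, the ratio of the highest to the lowest line in RNA (x) and at the start peak (y), both of CPM + 1 on log axes, with a dashed line of equal ratios. UBE2C and LBR lie above the line and the other 48 genes below it.

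UBE2C was the exception among start peaks. Its peak at chr20:45812039-45812936 (GRCh38), over the annotated starts, held 54.4 CPM in the A549-like, 47.7 in the HCC827-like, 3.61 (2.58 to 4.90) in the S100A9, 96.0 (88.4 to 104) in the SLC30A8 and 39.5 in the DHRS2 line. The S100A9 line was thus 21.1-fold below the SLC30A8 line in accessibility, and in RNA 8.08-fold. In the A549-like line the peak was next to the highest of the lines and the RNA next to the lowest. UBE2C and the start peaks described next were chosen after their values were seen.

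At AURKB (chr17:8210187-8211036) the start peak held 39.0, 32.5, 10.6, 26.1 and 25.2 CPM in the A549-like, HCC827-like, S100A9, SLC30A8 and DHRS2 lines. At AURKA (chr20:56391965-56392881) it held 74.9, 63.7, 46.1, 157 and 56.1 CPM, with the SLC30A8 line on top as in RNA. The CENPA peak (chr2:26785474-26786374), which covers the promoter printed above, held 71.9, 45.1, 22.1, 50.2 and 42.6 CPM, and its A549-like line led in RNA as well. The S100A9 line was lowest in all 4 of these peaks, as in their RNA. Genes and peaks around these 4 genes were also low in that line, as given below. For comparison, the start peaks of BUB1 and HJURP, with RNA spans of 11.7-fold and 11.6-fold, spanned 1.501-fold and 1.45-fold. The highest line was the same in RNA and at the start peak for 26 of the 50 genes. No such share over all genes is given here, so this count does not set the 50 genes apart.

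**Figure D5:**
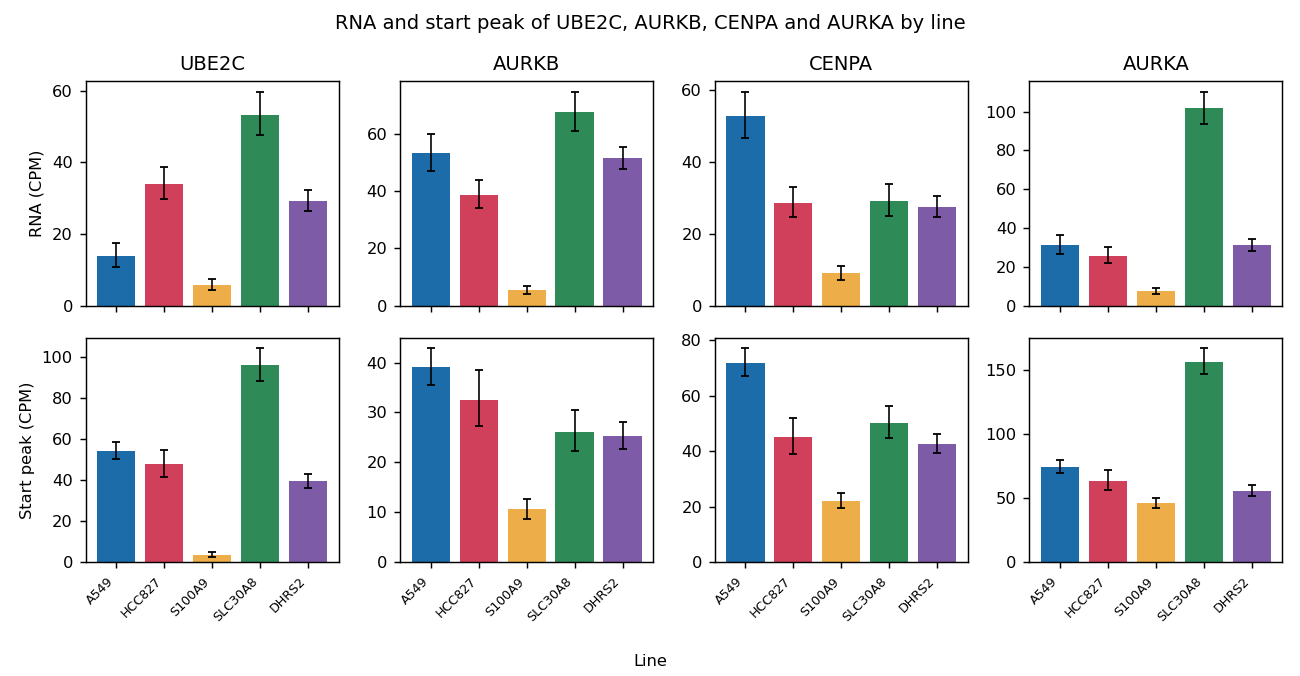
RNA (top, CPM of UMIs) and start peak (bottom, CPM of peak counts) of UBE2C, AURKB, CENPA and AURKA in the 5 lines, with exact Poisson 95% intervals. The S100A9 bar is the lowest in every panel, and the UBE2C peak in it stands at 3.61 CPM against 96.0 CPM in the SLC30A8 line.

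Peaks of the 50 genes differed little in their share of the counts between G2/M-high and other barcodes. The ratio of their summed CPM was 1.16 (A549-like), 1.03 (HCC827-like), 0.999 (S100A9), 1.11 (SLC30A8) and 1.03 (DHRS2). Counting intervals lay clearly apart in the A549-like line (3227 to 3322 against 2784 to 2885 CPM) and the SLC30A8 line (3016 to 3128 against 2691 to 2831 CPM). They all but met in the DHRS2 line and overlapped in the HCC827-like and S100A9 lines. The same barcodes differed in RNA of the 50 genes by 2.46 to 5.62 times in summed CPM. Counts over all peaks were higher per G2/M-high barcode, by 1.31, 1.33, 1.75, 1.04 and 1.17 times at the median in the same order of lines.

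The high levels of some genes in the SLC30A8 line were shared by their chromosomal surroundings, measured after seeing the data. Genes within 5 Mb of AURKA, 58 in number, had a median log2 ratio of 1.09 in that line (AURKA itself 2.05), and 522 peaks there one of 0.59 (all peaks -0.33). Around UBE2C the medians were 0.85 over 111 genes and 0.63 over 907 peaks, around TPX2 0.67 over 84 genes and 0.37 over 582 peaks. Around PSRC1, a spindle-associated gene, they were 1.31 over 97 genes and 0.91 over 453 peaks, beside 1.60 for PSRC1. AURKA, UBE2C and TPX2 all lie on chromosome 20. The remaining genes at least 2-fold higher in the SLC30A8 line had neighbours at medians from -0.40 (CDCA2) to 0.37 (NDC80) over genes (all genes -0.04). NDC80 itself was at 1.67, and BUB1 was at 1.43 with neighbours at 0.22. In the A549-like line the neighbours of KIF23 and CCNB2 (cyclin B2) were at medians of 0.91 and 0.996, beside 1.18 and 0.92 for the genes. HJURP and ECT2 differed from theirs: in the A549-like line HJURP was at 2.00 with neighbours at 0.12, and ECT2 at 1.22 with neighbours at -1.003. In the S100A9 line the surroundings of AURKB, UBE2C, AURKA and CENPA were low. Medians over genes were -0.93, -0.76, -0.75 and -0.75 in that order (all genes -0.22). Over peaks they were -0.97, -0.68, -0.63 and -0.62 (all peaks -0.05). Around BUB1 and HJURP they were -0.43 and -0.21 over genes, and 0.03 and 0.17 over peaks. The files hold no DNA copy number, and its part was not tested.

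The 40 G2 and mitosis genes used for the call followed the lines as the 50 genes did: 38 were lower in the S100A9 line and 21 higher in the SLC30A8 line. S phase genes and regulators of the cycle were lower in the S100A9 line in smaller shares. Of 38 S phase genes, 18 were lower in the S100A9 line, 13 in the HCC827-like line and 14 higher in the SLC30A8 line, and of 23 regulators of the cycle 9, 7 and 9. Over all genes, 16.6% were lower in the S100A9 line, 16.8% lower in the HCC827-like line and 12.4% higher in the SLC30A8 line. Among regulators the widest spans were those of MYBL2, E2F2 and FOXM1. MYBL2, the activator that joins the DREAM core in S phase, was at 14.7 (A549-like), 12.5 (HCC827-like), 3.75 (S100A9), 71.3 (SLC30A8) and 21.0 (DHRS2) CPM. FOXM1, which follows it at the same promoters, was at 41.6, 23.4, 4.69, 37.3 and 13.9 CPM, and thus highest in the A549-like line. E2F2, a transcription factor of S phase entry, was at 17.8 CPM in the SLC30A8 line and at most 4.42 elsewhere. The widest of the call list were FAM83D (16.4-fold), SGO1 (13.5-fold) and KIF18B (12.9-fold), and of the S phase list EXO1 (16.6-fold), BLM (9.30-fold) and DSCC1 (9.25-fold), all lowest in the S100A9 line.

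The mitochondrial share moved with the lines, and its part in the line differences was not tested beyond a split at 3%, added after seeing the data. In barcodes under 3%, the 50 genes summed to 4062 (A549-like), 2836 (HCC827-like), 957 (S100A9), 4278 (SLC30A8) and 3551 (DHRS2) CPM. In barcodes at or above it they summed to 2484, 2565, 1237, 4179 and 2663 CPM. The S100A9 line was lowest in both, whereas the A549-like line ranked next to the highest below the split and next to the lowest above it. Its higher genes then numbered 1 in place of 7, while those of the SLC30A8 line numbered 11 under the split in place of 19. With lines weighted equally, barcodes above the split differed from those below by a median log2 ratio of -0.33 over the 50 genes and -0.31 over all genes.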

How the data were processed

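Per the submitters' processing notes, the authors used Cell Ranger ARC 2.0.0 on GRCh38 and deposited 1 joint matrix of raw counts: whole-number UMIs per gene and whole-number counts per peak, with no normalisation. Peak positions and the span of each gene's annotated starts were read from the deposited files, per the file headers. Barcode and peak calling, the annotation and the strand setting of the counting are each not given in the sources used here, so antisense partners cannot be told apart, and TUBB4B, HMGB2, CKS1B, CBX5 and LBR may share reads with close copies.

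Barcodes with fewer than 1000 UMIs, 500 genes or 1000 peak counts, or with a mitochondrial share above 20%, were dropped, which kept 2804 of 3298. Scrublet's automatic threshold marked 1 barcode and was taken as not working, so the 63 highest scores, at 0.8% per 1000 barcodes, were removed. TF-IDF values of peaks outside the 50 genes gave 30 components, of which the first, correlated with depth at r = 0.990 across barcodes, was dropped. They were clustered with Leiden at resolution 0.2 over 20 neighbours (scanpy 1.11.5, leidenalg 0.10.2, Python 3.11.15), and 147 barcodes whose cluster and marker genes named different lines were left out. UMIs and peak counts were summed per line as CPM. Ratios are log2 of (CPM + 1), counted at 2-fold, with minimum totals of 20 UMIs per gene and 100 counts per peak. Of non-zero peak counts 83.3% are even, so peak intervals were computed on counts divided by 2. The cut of 3 UMIs is the smallest with a Poisson tail under 0.01 at the mean of the lower barcodes (0.361). The depth was 62477861 UMIs and 131221183 peak counts in all. Ratios and the call were tested on simulated data. The simulated barcodes fell into clearly separate low and high groups, unlike the continuous range here. That run therefore does not show how well barcodes near the cut are called. TMM factors came from edgeR 4.0.16 (R 4.3.3), with no test run.

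The 50 genes, the lists and the markers were chosen with earlier results of these data known. Values in all lines are given for CDK1, TOP2A, MKI67, CENPF and, in each role group, for the 2 genes with the widest and the 1 with the narrowest span between lines. For G2/M-high barcodes the 8 largest and 8 smallest ratios are named, and for the other lists the 3 widest. CCNB2, CKS2, CENPA, TPX2, TUBB4B, ECT2, CDC20, PSRC1 and HMGB2 were added after their values were seen. Alternatives covered scaling, pseudocount, minimum counts, line assignment, thinning, the cut, doublets and mitochondrial limits.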

Additional observations from a re-analysis of the deposited data

How the results depend on the processing

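The counts of genes lower in the S100A9 line stayed within 1.5 times of 42 under every alternative run. The median over the 50 genes changed sign in the A549-like line above the 3% mitochondrial split (0.35 to -0.21) and in the DHRS2 line under it (-0.25 to 0.15), and in the other lines it kept its sign under every alternative run. Small counts moved most, and the cause of these moves was not tested. Genes lower in the A549-like line numbered 3 with TMM, 2 without mitochondrial UMIs, 2 at a marker score of 4 times the next, 2 under and 4 above the 3% split, and 0 with no mitochondrial limit. Higher genes there numbered 1 above the split. In the HCC827-like line lower genes numbered 1 at a pseudocount of 0.1, by marker genes alone, at the marker score and with doublets kept, 2 by mean barcode CPM and 3 under the split. Higher genes there numbered 2 with TMM and under the split, and 1 above it. In the DHRS2 line higher genes numbered 1 by mean barcode CPM and at the marker score, and 4 under the split. Lower ones there numbered 0 on both sides of the split and 2 with no mitochondrial limit. In the SLC30A8 line 11 were higher under the split. Shares of G2/M-high barcodes (A549-like, HCC827-like, S100A9, SLC30A8, DHRS2) were 37.5%, 21.5%, 3.85%, 45.4% and 29.97% with thinning to 2000 UMIs, and 41.8%, 23.0%, 3.66%, 48.4% and 30.6% with a Poisson tail of 0.001. With 5000 UMIs they were 60.3% (A549-like) and 47.3% (DHRS2). Under the split they were 2.04% (S100A9) and 54.4% (SLC30A8), and above it 37.6% (A549-like) and 68.0% (SLC30A8). Genes higher in G2/M-high S100A9 barcodes numbered 23 under the split, with 1 such barcode. Peak counts by marker genes alone were 3 lower (HCC827-like), 3 lower (S100A9), and 1 higher and 0 lower (DHRS2). Binarised, they were 0 higher (A549-like), 3 lower (S100A9) and 1 higher (DHRS2). With TMM they were 8 higher (A549-like), and 1 higher and 3 lower (DHRS2). For peaks on the annotated starts alone, the A549-like line had 0 higher and 0 lower, the HCC827-like line 0 higher and 3 lower, the SLC30A8 line 0 lower, and the DHRS2 line 1 higher and 0 lower. No paired analysis was possible because the lines come from 1 library of each kind. The lowest of the 50 genes had 252 UMIs, which limits ratios in the shallow A549-like line and in the 33 G2/M-high barcodes of the S100A9 line.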

Other observations

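Among peaks of the 50 genes away from the start, a peak near TOP2A (chr17:40419368-40420307, GRCh38) held 34.0 CPM in the HCC827-like line and at most 8.64 CPM in the others. The TOP2A start peak held 44.1 CPM in the HCC827-like line and 72.6 CPM in the A549-like line, and TOP2A RNA was lower in the HCC827-like than in the A549-like line. Between barcodes above and below 3% mitochondrial UMIs, with lines weighted equally, TUBB4B (log2 ratio 0.38) and LBR (0.37) had the highest ratios of the 50 genes and HJURP (-0.77) the lowest. These peaks and genes were chosen after their values were seen.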
